A study of Mus musculus with 6 samples.

Results

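Transcripts of 10 genes that damp signalling through G-protein-coupled receptors were followed in blood-forming stem and progenitor cells from mouse marrow. They were 7 regulators of G protein signalling (Rgs1, Rgs2, Rgs10, Rgs14, Rgs16, Rgs18 and Rgs19), both beta-arrestins (Arrb1 and Arrb2) and the receptor kinase Grk6. All 10 were found by exact symbol among the 38926 gene symbols of the deposited table. The cells came from the femur and tibia of C57BL/6 mice aged 8-12 weeks and were sorted for Sca1 and cKit without lineage markers (LSK), which takes in stem cells together with multipotent progenitors. The first group was 3 libraries labelled Drd2 Drd3 double knockout (KO), in which both of these dopamine receptor genes are named as deleted, and the second was 3 libraries labelled wild type (WT). No treatment was given. The labels name neither a Cre driver nor the deleted exons, and separate animals are not stated for the replicates, so the spread behind each p-value may be partly technical, although sex-linked transcripts (below) differed among the KO libraries.

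A receptor of this class switches on a G protein by making its alpha subunit exchange GDP for GTP. RGS proteins speed up the hydrolysis of that GTP and so end the signal downstream of the receptor, whereas receptor kinases phosphorylate the active receptor and arrestins then bind it, uncouple it from the G protein and carry it into endocytosis. In marrow progenitors such receptors read chemokines, sphingosine 1-phosphate, prostaglandins and nucleotides, and Drd2 and Drd3 belong to the dopamine receptors that couple to the inhibitory G proteins.

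Depth and the state of the libraries bear on every value that follows. Whole reads recovered from the FPKM steps (FPKM being reads per kilobase of gene, scaled for depth by the authors) came to 5243367 to 7143202 per library. Of the targeted genes, Drd2 had 0 FPKM throughout. Drd3 was at 1.62, 3.08 and 3.04 FPKM in KO replicates 1, 2 and 3, against a listed value of 0 in all WT replicates. The check by Drd3 was opposite to the labels and Drd2 could not check them, so KO and WT below name the libraries so labelled. The Y-linked gene Ddx3y was at 0 in KO replicates 1 and 3, which held Xist (1.96 and 2.01 FPKM), and was at 15.1 FPKM in KO replicate 2, against 12.5 to 13.9 FPKM in the WT libraries. KO replicates 1 and 3 also held 3182 and 1173 FPKM of the immunoglobulin light chain Igkc, against 4.93 FPKM in KO replicate 2 and at most 2.48 FPKM in WT. This split divides the KO group, and it also leaves the groups unbalanced, since Xist was at 0 in every WT library. Sex, as read from these transcripts, is therefore partly confounded with the KO label. Its part in the differences was not tested. For the 9 tested members and some other genes, results are also given with KO replicate 2 as the sole KO library.

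The gate was checked on markers. Kit was at 82.5 to 129 FPKM in KO and at 105 to 150 FPKM in WT, and Ly6a, which encodes Sca1, at 114 to 161 FPKM in KO and at 110 to 129 FPKM in WT. The T cell genes Cd3d, Cd3e and Cd3g were each at or below 0.238 FPKM in all 6 libraries. Of the other T and NK cell markers, Cd8a and Ncr1 were at or below 0.118 FPKM, whereas Cd4 reached 2.42, Klrb1c 3.32 and Nkg7 417 FPKM. Markers of other lineages were present too, as the sums given below show. Those of B and plasma cells summed to 163 to 3617 FPKM and the erythroid ones to 519 to 1855 FPKM. The libraries were thus not free of lineage transcripts.

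The levels of the 10 transcripts spanned a wide range, and their order was nearly fixed. Rgs2, which acts mainly on the Gq class of alpha subunits, was the highest in each of the 6 libraries, at 174, 173 and 198 FPKM in KO replicates 1, 2 and 3, against 189, 183 and 186 FPKM in WT replicates 1, 2 and 3. The ranges of the groups overlapped. KO replicate 3 lay above all WT libraries, and KO replicates 1 and 2 lay below them all. Rgs18, a regulator known from platelets and megakaryocytes, came next in every library. Rgs19 and Grk6 followed and changed places between libraries, so that they were not told apart by level on the authors' scale. Rgs14, Rgs10, Arrb1 and Rgs16 took the last places, in that order, in all 6 libraries. The places of Rgs19 against Grk6 and of Rgs14 against Rgs10 rest on the gene lengths the authors used for Grk6 and Rgs14. Averaged over the libraries, 96.9% of the 11371 tested genes had a lower FPKM than Rgs2 and 95.1% a lower one than Rgs18, while Arrb1 stood above 15.1% of them.

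**Figure D1:**
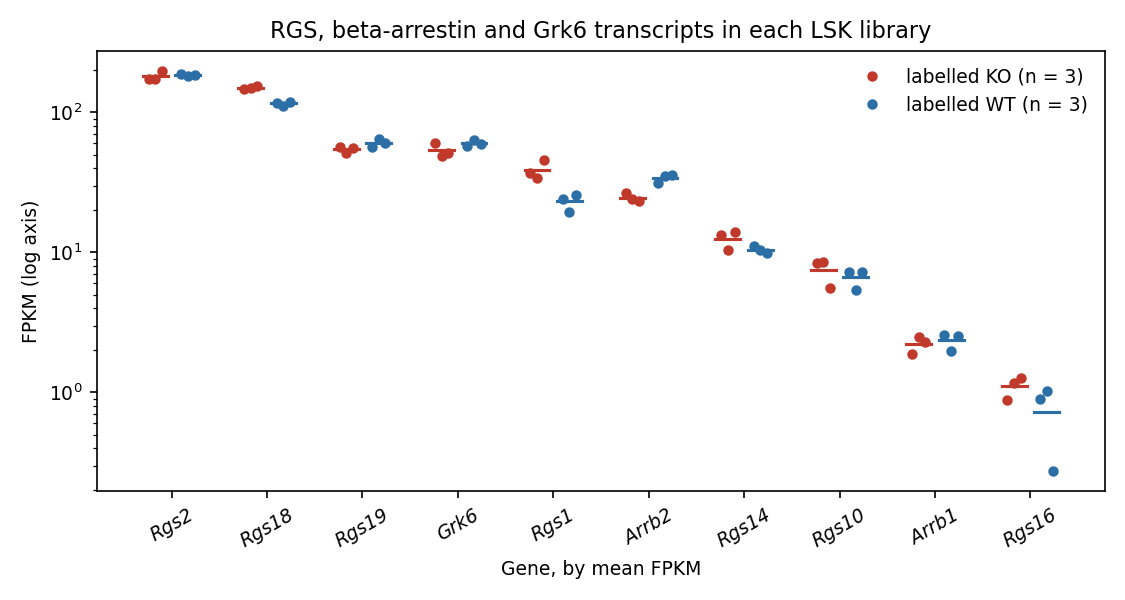
FPKM of each of the 10 genes in each library on a log axis, with genes ordered by mean FPKM. Points are libraries (3 labelled KO in red, 3 labelled WT in blue) and bars are group means. Points of the groups are apart for Rgs18, Rgs1 and Arrb2 and overlap for the other genes.

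Promoter windows of RefSeq (build GRCm38.p6) were matched for 5 of the 10 genes: Rgs2, Rgs10, Rgs16, Rgs19 and Grk6. The other 5 are Rgs1, Rgs14, Rgs18, Arrb1 and Arrb2. The windows of Rgs2 and Rgs16 are shown because these were the highest and the lowest RGS transcript of the set, on the same chromosome. Each holds the 250 bases before the RefSeq start, 5′ to 3′ on the strand of the gene, and capitals mark matches on either strand to 5 motifs. The GC box was searched as GGGCGG. The CCAAT box was searched by its own letters. The core of the cAMP response element was searched as TGACG. Its full site, which contains the core, was TGACGTCA. The last motif was the TATA-like TATAAA.
Rgs2 (chr1:144004150-144004399, minus strand): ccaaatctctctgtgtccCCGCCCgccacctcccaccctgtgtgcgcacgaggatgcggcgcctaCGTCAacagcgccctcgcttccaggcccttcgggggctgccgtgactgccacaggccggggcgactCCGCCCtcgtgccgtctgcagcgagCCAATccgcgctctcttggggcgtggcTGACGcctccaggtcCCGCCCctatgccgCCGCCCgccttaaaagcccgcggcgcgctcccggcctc
Rgs16 (chr1:153740103-153740352, plus strand): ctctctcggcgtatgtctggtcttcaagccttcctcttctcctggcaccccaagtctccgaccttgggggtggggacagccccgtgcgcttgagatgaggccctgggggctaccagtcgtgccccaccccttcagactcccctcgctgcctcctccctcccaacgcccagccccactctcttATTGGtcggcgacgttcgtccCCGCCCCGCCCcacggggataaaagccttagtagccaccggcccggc

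The Rgs2 window held 4 matches to the GC box, 1 to the CCAAT box and 2 to the core of the cAMP response element. The Rgs16 window held 2 overlapping GC box matches and 1 CCAAT box, and no such core. Neither held the TATA-like motif or the full site. Of 32851 windows of this length in the table, 32.7% held a GC box, 33.8% a CCAAT box, 17.8% the core, 12.4% the TATA-like motif and 1.55% the full site. The GC content was 72.4% for Rgs2 and 66.4% for Rgs16, against a median of 52.4% over all windows. These matches describe letters and were not tested against the levels.

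Set against WT, the KO libraries show which of these transcripts differ in LSK cells labelled as lacking both receptors. Rgs1 and Rgs18 rose and Arrb2 fell, and the other 6 tested genes did not pass. The test was limma's moderated linear model on log2(FPKM + 1) over the 11371 genes that averaged 1 FPKM or more, with two-sided p-values adjusted by Benjamini-Hochberg over all of them and a threshold of 0.05. Of all tested genes 10.9% were called, 5.48% higher and 5.43% lower in KO. Here 3 of 9 tested members were called, 2 higher and 1 lower. Their median log2 difference was -0.04, beside -0.002 over all tested genes. The values of KO and WT did not overlap in the same 3 of 9 members, beside 32.8% of all tested genes (16.2% with KO above and 16.6% with KO below), so the share of members that separated was near the background. All differences below are KO minus WT on the log2(FPKM + 1) scale, which understates the change of low genes.

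**Figure D2:**
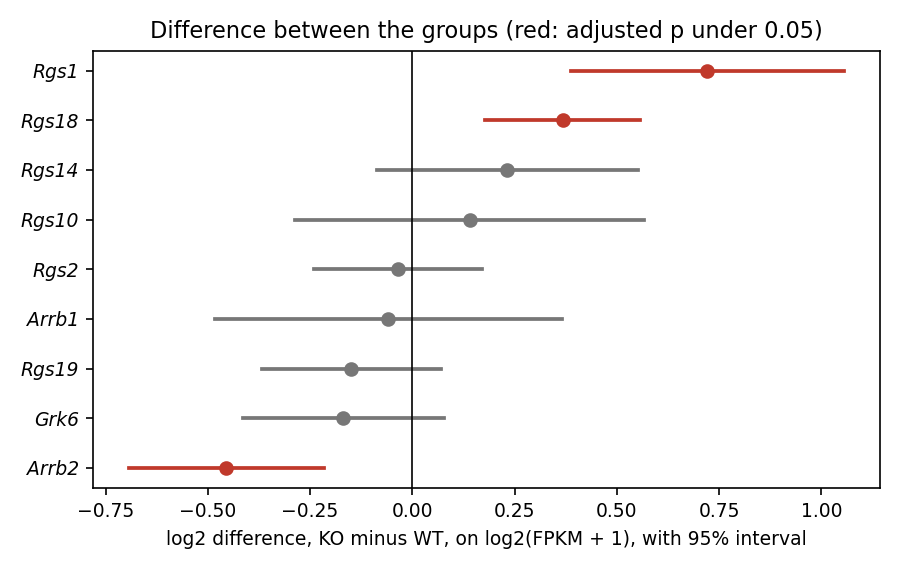
Log2 difference, KO minus WT, of the 9 tested genes on the log2(FPKM + 1) scale (points) with 95% intervals from limma (lines). Red marks an adjusted p under 0.05, which Rgs1 and Rgs18 (higher) and Arrb2 (lower) reached.

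Among the small RGS proteins, Rgs1 showed the largest difference of the 9. Rgs1, which ends Gi and Gq signals and is known for restraining chemokine responses of lymphocytes, lies on the minus strand of chromosome 1 (144242296 to 144249242, GENCODE M21 on GRCm38, the assembly also called mm10). It was at 36.7, 33.9 and 46.0 FPKM in KO replicates 1, 2 and 3 (1015, 897 and 956 reads), against 24.3, 19.3 and 25.9 FPKM in WT replicates 1, 2 and 3 (580, 434 and 619 reads). The lowest KO library, which was replicate 2, stood above the highest WT library. Rgs1 averaged 38.9 ± 6.33 FPKM in KO and 23.2 ± 3.41 FPKM in WT (SD, n = 3 each), a ratio of means of 1.68. The log2 difference was 0.72 ± 0.15 SE (95% interval 0.39 to 1.06, limma adjusted p = 0.0171), higher in 3 of 3 KO libraries. Rgs1 was not called without WT replicate 1 (adjusted p = 0.0510), without WT replicate 2 (adjusted p = 0.0769) and with no filter on low values (adjusted p = 0.0568). With KO replicate 2 as the sole KO library the difference was 0.54 and the adjusted p = 0.146, in a range of 0.00660 to 0.146 over all alternatives.

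Rgs18 lies on the same strand of chromosome 1 (144752683 to 144775435) and rose by less, with a smaller spread. It was at 147, 149 and 155 FPKM in KO replicates 1, 2 and 3 (2148, 2086 and 1705 reads), against 117, 112 and 120 FPKM in WT replicates 1, 2 and 3 (1481, 1329 and 1517 reads). All KO libraries lay above all WT libraries, and within each group the values were close. The means were 150 ± 4.23 FPKM in KO and 116 ± 4.02 FPKM in WT (SD, n = 3 each), a ratio of 1.29, and the log2 difference was 0.37 ± 0.08 SE (95% interval 0.18 to 0.56, limma adjusted p = 0.0255). Rgs18 was not called without WT replicates 1, 2 and 3 in turn (adjusted p = 0.0848, 0.125 and 0.0809) and without a mean-variance trend (adjusted p = 0.0762). Blocking the libraries by replicate number also ended its call (limma adjusted p = 0.0748). With KO replicate 2 alone the difference was 0.36 (adjusted p = 0.0867; 0.0182 to 0.125 over all alternatives).

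Rgs2 lies in 1 cluster with Rgs1 and Rgs18. In GENCODE M21 the order along chromosome 1 is Rgs2, Rgs13, Rgs1, Rgs21 and Rgs18, all on the minus strand, over 776 kb. Rgs13 and Rgs21 were listed at 0 in all 6 libraries. Rgs2 (143999338 to 144004161) averaged 182 ± 14.2 FPKM in KO and 186 ± 3.29 FPKM in WT, with a log2 difference of -0.04 (95% interval -0.24 to 0.17, limma adjusted p = 0.840). It rested on 12799 reads in KO and 12388 in WT. Within a library, the Rgs1 to Rgs2 ratio of FPKM was 0.211, 0.195 and 0.232 in KO, against 0.128, 0.106 and 0.139 in WT. The Rgs18 to Rgs2 ratio was 0.843, 0.857 and 0.780 in KO, against 0.618, 0.611 and 0.642 in WT. Neither ratio overlapped between the groups, and both are given as descriptions, with no test. The size of the Rgs1 to Rgs2 ratio rests on the gene length the authors used for Rgs1.

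Rgs16, a regulator that is induced in activated lymphocytes, lies elsewhere on chromosome 1 (153740349 to 153745468, plus strand) and had the lowest level. It was at 0.889, 1.175 and 1.26 FPKM in KO replicates 1, 2 and 3 (15, 19 and 16 reads), against 0.890, 1.02 and 0.274 FPKM in WT replicates 1, 2 and 3 (13, 14 and 4 reads). Its mean lay under 1 FPKM, so it was not tested. The groups overlapped, WT replicate 3 was the lowest library, and at 4 to 19 reads per library counting error alone is large.

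Rgs10, Rgs14 and Rgs19 act mainly on the inhibitory alpha subunits, and none passed the test. Rgs10 was at 8.34, 8.54 and 5.60 FPKM in KO and at 7.30, 5.38 and 7.30 FPKM in WT (log2 difference 0.14, 95% interval -0.29 to 0.57, limma adjusted p = 0.681). A single low library in each group, KO replicate 3 and WT replicate 2, set its spread. Rgs14, which also binds inactive alpha subunits and Ras proteins, was at 13.3, 10.4 and 13.99 FPKM in KO and at 11.2, 10.3 and 9.90 FPKM in WT (0.23, interval -0.09 to 0.55, limma adjusted p = 0.325). KO replicate 2 lay within the WT range, and with it as the sole KO library the difference of Rgs14 was -0.0082. Rgs19 was at 56.9, 51.3 and 55.3 FPKM in KO and at 56.3, 64.5 and 60.8 FPKM in WT (-0.15, interval -0.37 to 0.07, limma adjusted p = 0.356). The intervals of Rgs10 and Rgs14 hold changes as large as that of Rgs18, so these data do not show that they were level.

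The summed FPKM of the 7 RGS genes was 436, 427 and 475 in KO, against 406, 395 and 410 in WT. Rgs18 and Rgs1 together made up 42.0, 42.7 and 42.2% of this sum in KO and 34.8, 33.2 and 35.5% in WT. The share of Rgs2 was 39.8, 40.6 and 41.7% in KO and 46.6, 46.2 and 45.4% in WT, and that of Rgs19 was 13.03, 11.99 and 11.6% in KO and 13.9, 16.3 and 14.8% in WT. Shares of 1 sum move together, and they were not tested. The sum and the shares also rest on the gene lengths the authors used for Rgs1 and Rgs14.

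**Figure D3:**
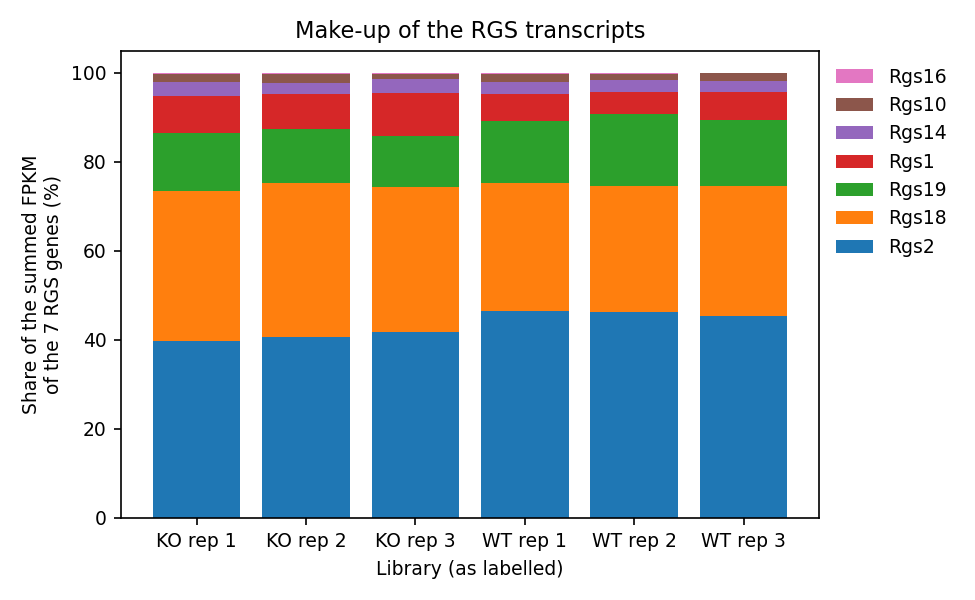
Share of each of the 7 RGS genes in their summed FPKM (vertical axis, percent) in each library, with the 3 libraries labelled KO on the left and the 3 labelled WT on the right. On the gene lengths the authors used, Rgs18 and Rgs1 together take 42.0 to 42.7% in KO and 33.2 to 35.5% in WT.

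Arrb2 fell, and it was the one called gene among Arrb1, Arrb2 and Grk6. Beta-arrestin 2 binds phosphorylated receptors, drives their internalisation and also acts as a scaffold for kinases. Its gene lies on the plus strand of chromosome 11 (70432635 to 70440828). Arrb2 was at 26.4, 24.2 and 23.3 FPKM in KO replicates 1, 2 and 3 (542, 476 and 360 reads), against 31.4, 35.4 and 35.7 FPKM in WT replicates 1, 2 and 3 (558, 590 and 634 reads). Every KO library lay below every WT library. The means were 24.6 ± 1.59 FPKM in KO and 34.2 ± 2.38 FPKM in WT (SD, n = 3 each), a ratio of 0.722, and the log2 difference was -0.45 ± 0.11 SE (95% interval -0.69 to -0.22, limma adjusted p = 0.0266). Arrb2 was not called without KO replicate 2 (adjusted p = 0.0611), without WT replicates 1, 2 and 3 in turn (0.0524, 0.119 and 0.106) and without a mean-variance trend (0.0569). Blocking the libraries by replicate number also ended its call (limma adjusted p = 0.0730). With KO replicate 2 alone the difference was -0.48 (adjusted p = 0.0889; 0.0194 to 0.119 over all alternatives).

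Arrb1, the other beta-arrestin (chromosome 7, 99535466 to 99606771), was much lower per length. It was at 1.87, 2.49 and 2.31 FPKM in KO and at 2.57, 1.97 and 2.54 FPKM in WT, and the groups overlapped (log2 difference -0.06, 95% interval -0.48 to 0.37, limma adjusted p = 0.874). Its direction turned without KO replicate 1 (0.0219) and with KO replicate 2 alone (0.0595). The Arrb2 to Arrb1 ratio of FPKM was 14.1, 9.74 and 10.1 in KO and 12.2, 18.0 and 14.1 in WT, which overlapped, so a shift between the beta-arrestins was not seen beyond the spread. Rgs1 stood above Arrb2 in 3 of 3 KO libraries and below it in 3 of 3 WT libraries, an order that rests on the gene length the authors used for Rgs1.

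Grk6, the receptor kinase that in mouse blood cells acts on chemokine receptors, lies on chromosome 13 (55445072 to 55460927), 60.4 kb beyond Rgs14. It was at 60.4, 48.4 and 51.6 FPKM in KO and at 57.1, 64.0 and 59.2 FPKM in WT. KO replicate 1 lay within the WT range and the other KO libraries below it. The difference did not pass (-0.17, 95% interval -0.41 to 0.08, limma adjusted p = 0.352).

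**Figure D4:**
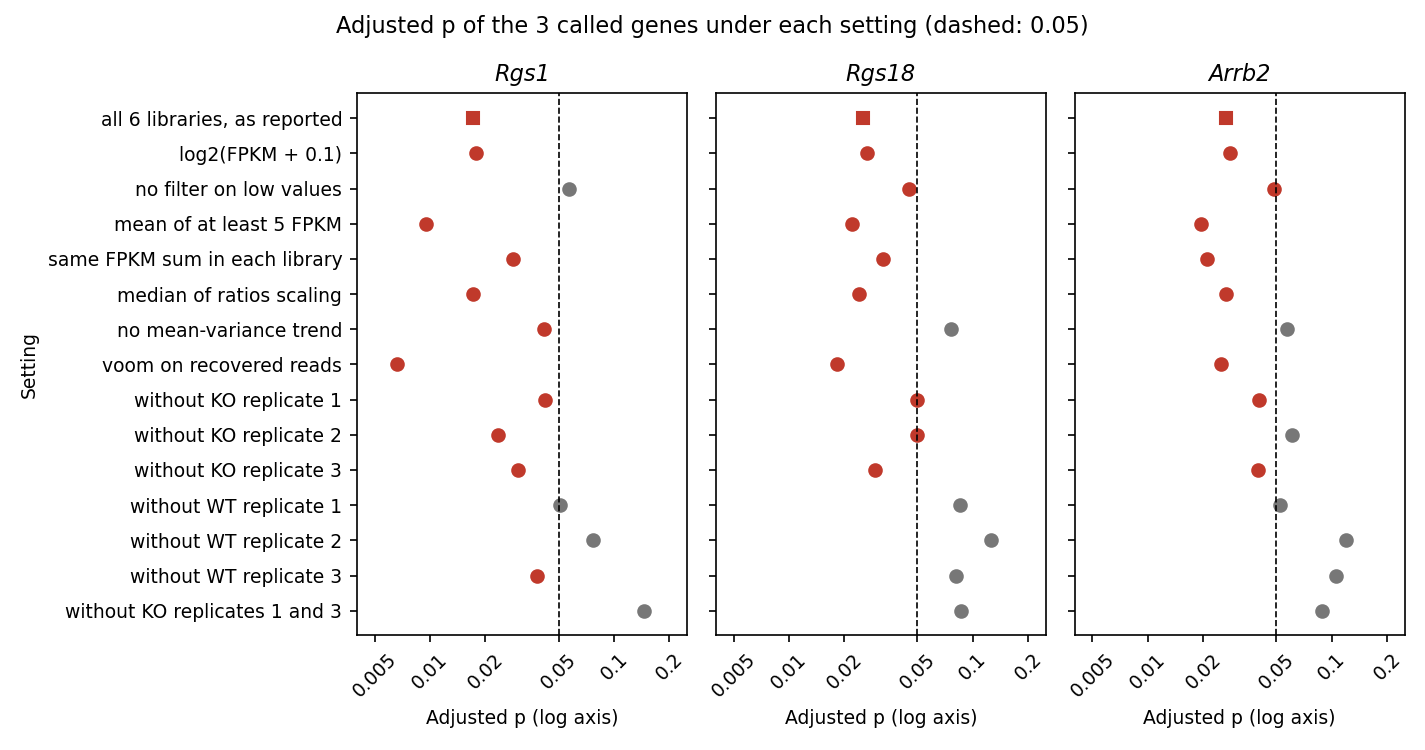
Adjusted p (log axis) of Rgs1, Rgs18 and Arrb2 with all 6 libraries (square) and under the other settings drawn (circles). Red lies below and grey above the 0.05 threshold (dashed line). A fit with libraries blocked by replicate number is not drawn. With that block Rgs1 was called (limma adjusted p = 0.0168), and Rgs18 and Arrb2 were not (0.0748 and 0.0730). All 3 genes lie above the threshold without WT replicate 1, without WT replicate 2 and without KO replicates 1 and 3.

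Other genes of the pathway were counted in the same fit. Of 15 further RGS genes, 5 were listed at 0 in every library and 2 were tested. Neither was called (limma; 0 at an unadjusted p under 0.05, and 0 by limma-voom on recovered reads): Rgs12 had a log2 difference of -0.32 and Rgs3 of 0.06. Of 6 tested proteins with an RGS-like domain, which include the Wnt scaffold Axin1, none was called (1 at an unadjusted p under 0.05, 0 by voom). The median was -0.23. Of 3 tested genes among the remaining receptor kinases and visual arrestins, 2 had an unadjusted p under 0.05 (limma). Of these, Grk2 (listed as Adrbk1) averaged 55.1 ± 4.80 FPKM in KO and 66.2 ± 5.62 FPKM in WT, with no overlap. Its log2 difference was -0.26, and it was not called (limma adjusted p = 0.147). The 1 called gene, also called by voom, fell. This was Grk3 (listed as Adrbk2), at 1.59, 1.70 and 1.58 FPKM in KO and at 3.45, 3.26 and 3.40 FPKM in WT, with no overlap (log2 difference -0.74, limma adjusted p = 0.0263). It missed the threshold without KO replicate 1 or 2 and without any 1 of the WT libraries (adjusted p = 0.0509 to 0.0946), with no filter (0.0657) and with KO replicate 2 alone (0.104).

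Arrdc3 and Gnb5 rose. Of 5 tested alpha-arrestins, relatives of the arrestins that recruit ubiquitin ligases to membrane proteins, 1 was called. In this list 3 had an unadjusted p under 0.05 (limma), 1 was called by voom, and the median log2 difference was 0.54. Arrdc3, known in mouse and human cells for its link to the beta-adrenergic receptor, was at 52.0, 50.2 and 71.4 FPKM in KO, against 31.7, 30.04 and 29.9 FPKM in WT (log2 difference 0.88, limma adjusted p = 0.00547), and it was called under each of its 15 alternatives. Of 8 tested genes for other G protein regulators, 1 was called (limma, with 3 at an unadjusted p under 0.05, and 0 by voom). Gnb5, the beta subunit that pairs with a subfamily of RGS proteins (Rgs6, Rgs7, Rgs9 and Rgs11), was at 10.1, 11.3 and 13.96 FPKM in KO, against 7.42, 7.04 and 5.93 FPKM in WT (0.71, limma adjusted p = 0.0212). It missed the threshold without any 1 of the WT libraries (adjusted p = 0.0524 to 0.0863), with no filter (0.0592), with KO replicate 2 alone (0.106) and by voom (0.0626). Those 4 partners were each at or below 0.339 FPKM in all 6 libraries.

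Of the 12 tested alpha subunits, the substrates of RGS proteins, none was called (limma, with 7 at an unadjusted p under 0.05, and 2 by voom). No share over all tested genes was counted for the unadjusted p. The values of KO and WT did not overlap in 8 of the 12 (66.7%), in either direction, beside 32.8% of all tested genes. Of the other lists, 14 of 26 receptors (53.8%) and 2 of 3 other receptor kinases and visual arrestins did not overlap. The same held for 3 of 8 other G protein regulators, 2 of 6 proteins with an RGS-like domain, 1 of 5 alpha-arrestins and 0 of 2 further RGS genes. These shares were not tested. Gnai2, the highest alpha subunit, was at 417, 383 and 380 FPKM in KO and at 480, 488 and 478 FPKM in WT (log2 difference -0.29, limma adjusted p = 0.0616, called under 2 of 15 alternatives). Gna13, which signals to the cytoskeleton, was at 10.5, 9.37 and 13.6 FPKM in KO and at 17.1, 15.8 and 15.95 FPKM in WT (log2 difference -0.52, limma adjusted p = 0.0510, called under 5 of 15 alternatives). Of 26 tested receptors, 5 rose and 4 fell, beside 10.9% called among all genes (limma, with 14 at an unadjusted p under 0.05, and 8 by voom). S1pr1, the sphingosine 1-phosphate receptor of lymphocyte exit, was at 51.1, 50.1 and 73.8 FPKM in KO, against 27.8, 23.8 and 23.6 FPKM in WT (1.17, limma adjusted p = 0.00286). Its relative S1pr3 was at 1.92, 1.45 and 3.16 FPKM in KO, against 5.97, 5.67 and 6.32 FPKM in WT (-1.17, limma adjusted p = 0.0109; 0.0503 without WT replicate 2). The chemokine receptor Ccr7 averaged 0.357 ± 0.310 FPKM in KO and 2.31 ± 0.608 FPKM in WT (-1.30, limma adjusted p = 0.0159), and was not called when WT replicate 1 or 2 was left out (adjusted p = 0.0693 and 0.0678) or with KO replicate 2 alone (adjusted p = 0.0842). Drd3, with the values given above, was also called higher (limma adjusted p = 0.00344). These lists were chosen with earlier results of the same data known and give no independent support.

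Markers of cells inside and outside the gate moved beside these genes. Within the LSK list, chosen after their values were seen, Flt3 was at 31.8 to 38.6 FPKM in KO against 76.6 to 94.0 FPKM in WT, Cd34 at 366 to 460 FPKM in KO against 659 to 691 FPKM in WT, and Slamf1 at 8.27 to 12.4 FPKM in KO against 0.942 to 2.31 FPKM in WT. All 3 passed limma's test (2 of 7 markers lower, 1 higher). The 7 megakaryocyte and platelet markers summed to 145 to 238 FPKM in KO and 90.9 to 150 FPKM in WT, and 2 of 6 tested were higher, Pf4 and Gp1bb. The 8 T and NK cell markers summed to 191 to 296 FPKM in KO and 355 to 419 FPKM in WT, nearly all of it Nkg7, which fell, whereas Klrb1c was higher (2.52 ± 0.700 FPKM in KO and 0.573 ± 0.315 FPKM in WT, SD, n = 3 each, limma adjusted p = 0.0195), and Cd3g and Ncr1 were at 0 in every library. The 9 B and plasma cell markers summed to 163 to 3617 FPKM in KO and 348 to 369 FPKM in WT, with no call. The sums of 8 neutrophil markers were 26.3 to 158 FPKM in KO and 115 to 238 FPKM in WT, and those of 7 macrophage and dendritic cell markers 2.42 to 16.5 FPKM in KO and 3.31 to 4.74 FPKM in WT, with no call in either. The erythroid list (7 of its 8 symbols were in the table) summed to 992 to 1855 FPKM in KO and 519 to 959 FPKM in WT, with 1 of 6 tested higher, and the 6 mast cell and basophil markers to 60.9 to 129 FPKM in KO and 52.0 to 88.5 FPKM in WT, with 2 of 6 higher. In sorted bulk cells, fewer cells of a type and less RNA per cell cannot be told apart. The part of these markers in the differences of Rgs1, Rgs18 and Arrb2 was not tested.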

How the data were processed

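The authors deposited 1 table of FPKM for 6 libraries (per the labels' protocols, SMART-Seq v4 cDNA and Nextera XT, kits that keep no strand information). Build mm10 and, with no roles, DESeq2 1.18.1, HTSeq 0.6.1, TopHat2 2.1.1 and bcl2fastq 2.19.1.403 are named by the submitters' processing notes (the annotation was not given in the sources used here). Whole reads were recovered from the ratios of FPKM between libraries (17183 of 17183 genes with 2 or more values above 0, at a relative tolerance of 1e-09). They describe depth, cover counting error only, and are lower bounds where a common factor is missing.

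The 3 KO and 3 WT libraries were compared with limma 3.58.1 (R 4.3.3; lmFit, then eBayes with trend) on log2(FPKM + 1) of the 11371 genes that averaged 1 FPKM or more, adjusted by Benjamini-Hochberg at 0.05. Alternatives were another pseudocount, 2 other filters, 2 scalings, no trend, voom on recovered reads, a replicate block and libraries left out. Positions are from GENCODE M21 and plots from Python 3.11.15 with matplotlib 3.10.9. Grk2, Grk3, Ric8a, Jchain and other genes were also looked up under older symbols.

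The members, lists and alternatives were chosen with earlier results of these data known. Named were all 10 members, up to 4 called genes of each pathway list by smallest p, the targeted genes, and genes that set libraries apart. Grk2, Gnai2, Gna13, Rgs3, Rgs12 and single cell markers were named after their values were seen.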

Additional observations from a re-analysis of the deposited data

How the results depend on the processing

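Over all tested genes the count called was 1240, was 1593 by voom on recovered reads, and moved to 588 with no filter, 805 with the replicate block, 514 with KO replicate 2 as the only KO library (KO replicates 1 and 3 left out), and 370 to 1598 with 1 library left out. The count of called members, 3 with all libraries, was 1 (Rgs1) with no mean-variance trend and 1 (Rgs1) with the replicate block, 0 with KO replicate 2 alone, and 0 to 3 with 1 library left out. The 3 called members kept their direction under every alternative run. Rgs1 (0.72) missed the threshold with no filter (0.72) and with KO replicate 2 alone (0.54), and ran from 0.60 to 0.81 with 1 library left out. Rgs18 (0.37) missed it with no trend (0.37), with the block (0.37) and with KO replicate 2 alone (0.36), and ran from 0.34 to 0.39. Arrb2 (-0.45) missed it with no trend (-0.45), with the block (-0.45) and with KO replicate 2 alone (-0.48), and ran from -0.51 to -0.42. The cause was not tested; fewer libraries entered the fits that leave some out. In the fit with KO replicate 2 alone, that library is assumed to vary as the WT libraries do. With KO replicate 2 alone Rgs14 turned to -0.0082 and Arrb1 to 0.0595, and Arrb1 to 0.0219 without KO replicate 1 (-0.145 to 0.0219 with 1 left out). With KO replicate 2 alone Rgs2 was at -0.10, Rgs10 at 0.33, Rgs19 at -0.23 and Grk6 at -0.30, each in its former direction. The untested Rgs16 difference was 0.31, and 0.68 with a pseudocount of 0.1; a median-of-ratios value differed by less than the spread. No other called or uncalled member changed sides.

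Same-numbered libraries did not deviate together: Pearson's r of their deviations over the tested genes was -0.03, 0.04 and -0.12 for numbers 1, 2 and 3. The replicate block therefore pairs libraries by number only.

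In the other lists a mean of at least 5 FPKM also took genes out of the test. It left 13 of 26 receptors, without Drd3, S1pr3 and Ccr7. Among the other receptor kinases and visual arrestins it left 1 of 3, without Grk3 (mean 2.50 FPKM). The counts called in these lists moved as follows. Among the other receptor kinases and visual arrestins the 1 call went to 0 with no filter, with a mean of at least 5 FPKM, with the block and with KO replicate 2 alone (0 to 1 with 1 left out). Among alpha-arrestins it became 2 with the block (1 to 2). Among other G protein regulators it became 0 with no filter, voom, the block and with KO replicate 2 alone, and 2 with no trend (0 to 1). Among alpha subunits the count of 0 became 1 with a pseudocount of 0.1, a mean of at least 5 FPKM, the same FPKM sum and with KO replicate 2 alone, and 2 with voom (0 to 1). The 9 receptors became 4 with no filter, 4 with a mean of at least 5 FPKM, 5 with the block and 4 with KO replicate 2 alone (2 to 9).

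With 3 libraries a group and 4 to 19 reads of Rgs16 per library, depth limits what the values of Rgs16 can show.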

Other observations

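The level of a gene in FPKM rests on the gene length used, which the reads and FPKM together imply. For 7 of the 10 members the implied length equalled the exon length of GENCODE M21. For Rgs1 it was 3830 bases against 6947, for Rgs14 2490 against 4239 and for Grk6 3241 against 4202. With the GENCODE length the level of Rgs1 would be 1.81-fold lower, 20.2, 18.7 and 25.4 FPKM in KO and 13.4, 10.7 and 14.3 FPKM in WT. Its order against Arrb2 (26.4, 24.2 and 23.3 FPKM in KO) would then turn in KO replicates 1 and 2 and stay in KO replicate 3. With the GENCODE length Grk6 would be at 46.6, 37.4 and 39.8 FPKM in KO and at 44.03, 49.3 and 45.6 FPKM in WT, below Rgs19 in all 6 libraries. Rgs14 would be at 7.81, 6.11 and 8.22 FPKM in KO and at 6.57, 6.08 and 5.82 FPKM in WT, below Rgs10 in KO replicates 1 and 2 and WT replicates 1 and 3 and above it in the others. The ratio of mean FPKM between the groups does not depend on the length. The differences on log2(FPKM + 1) and the filter on mean FPKM do, and no fit was run with other lengths.

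Reads of a gene and of a transcript on the other strand cannot be told apart in these libraries. In GENCODE M21 an antisense gene, Gm28513, overlaps 1917 bases of Rgs16, and Gm44914 overlaps 2720 bases of Arrb1 on the other strand. No gene model overlaps Rgs1, Rgs2 or Rgs18, and Arrb2 holds the model of a microRNA, Mir7115, on its own strand.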
